A study of Homo sapiens with 12 samples.

Results

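The 10 genes described here encode DNA topoisomerases (TOP1, TOP2A, TOP2B, TOP3A), the phosphodiesterases that free DNA ends from trapped topoisomerases (TDP1, TDP2), the break-sensing ADP-ribose polymerases PARP1 and PARP2, and the scaffold and ligase that close single-strand breaks (XRCC1, LIG3). They were picked by name from the 60649 genes in the count files, and all 10 were among the 16683 genes with enough reads to be tested. The samples were spheroids of SBC3, an established human small cell lung cancer cell line, in 12 mRNA libraries with 3 libraries in each of 4 groups. The groups were control, teriflunomide alone, lurbinectedin alone, and both drugs together (the combination). Teriflunomide is known as an inhibitor of the pyrimidine synthesis enzyme DHODH, and lurbinectedin as an alkylating agent that binds DNA in the minor groove. The labels give no dose, time of treatment or culture identity, so p-values measure the spread between these libraries, which may be technical.

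Topoisomerases cut DNA, hold the cut end on a tyrosine while the strands pass or turn, and then reseal it. When the enzyme is trapped on its cut, TDP1 removes the remnant of TOP1 and TDP2 that of a type II enzyme from the DNA end. Breaks are bound by PARP1 and PARP2, whose ADP-ribose chains recruit XRCC1 with its partner ligase, encoded by LIG3. In small cell lung cancer several of these proteins, but not all, are known as targets of topoisomerase poisons or PARP inhibitors.

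With lurbinectedin TOP2B fell while TOP2A, the other type II enzyme, was not called, so the 250 bases before the RefSeq start sites of this pair (GRCh38.p14) are shown first. They are printed 5′ to 3′ on the gene's strand. Capitals mark 2 motifs searched on both strands, CCAAT (the CCAAT box, read as ATTGG on the other strand) and the CHR, a cell cycle promoter element, as TTTGAA or TTCGAA. All 10 genes matched an entry in the promoter table, and TOP2B has a second start whose window is not printed and held 0 matches of either motif.
TOP2A chr17:40417897-40418146, minus strand: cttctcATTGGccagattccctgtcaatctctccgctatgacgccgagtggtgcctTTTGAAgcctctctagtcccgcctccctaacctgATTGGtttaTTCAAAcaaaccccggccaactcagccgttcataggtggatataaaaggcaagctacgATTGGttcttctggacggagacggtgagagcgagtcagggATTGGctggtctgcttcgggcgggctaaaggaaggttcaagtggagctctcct
TOP2B chr3:25664908-25665157, minus strand: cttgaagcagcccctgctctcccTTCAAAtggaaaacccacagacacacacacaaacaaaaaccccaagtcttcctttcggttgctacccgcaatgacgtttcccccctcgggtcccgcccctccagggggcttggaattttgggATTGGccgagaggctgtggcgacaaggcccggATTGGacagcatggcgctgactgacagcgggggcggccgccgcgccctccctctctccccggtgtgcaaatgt
The TOP2A window held 4 CCAAT boxes, which began 244, 160, 93 and 53 bases before the start site, and 2 CHR matches. The TOP2B window shown held 2 CCAAT boxes, 105 and 73 bases before the start, and 1 CHR match. Among 35116 promoter windows of the same length, 0.874% held at least 4 CCAAT boxes, 9.53% at least 2, and 32.0% at least 1. A CHR match was present at least once in 14.3% of them and at least 2 times in 1.90%. Neither motif shared bases with the other in these windows. Of the other members, TDP1 held 1 CHR match, XRCC1 held 1 CCAAT box and 1 CHR match, and the rest held neither motif. The GC box (GGGCGG) was also searched and is not marked. It had 1 match in the TOP2A window and 2 in the TOP2B window shown, where 42.6% of all windows held at least 1 and 24.3% at least 2. The motifs were chosen after the expression values were seen, and a match describes letters, not a bound factor.

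Each library held 23206414 to 33222162 counted reads, and the members' own counts ran from 227 to 24099 per library. Genes of the mitochondrial genome took 6.26% to 7.17% of reads in control, 13.8% to 17.0% with lurbinectedin and 13.1% to 24.9% in the combination. Teriflunomide replicate 3 stood apart: 22.6% of its reads were mitochondrial, against 8.42% and 8.43% in the other libraries of its group, and it lay alone on the second principal component. Calls that change without this library, and called values that move by over 1.5 times, are given both ways. The neuroendocrine markers INSM1, NCAM1 and UCHL1 were at or near 0, with no library above 0.0681 CPM, and CHGA did not exceed 0.654 CPM. SYP stood at 15.99 to 17.5 CPM in control and 29.8 to 32.5 with lurbinectedin, NEUROD1 at 3.67 to 4.29 and 1.502 to 1.72, and DLL3 at 1.87 to 2.12 and 1.89 to 2.98. Of the epithelial markers only KRT8 was above 1 CPM on average, at 236 to 252 CPM in control and 399.9 to 433 with lurbinectedin. YAP1, a marker of non-neuroendocrine tumours of this type, stood at 236 to 259 CPM in control and 60.2 to 72.2 with lurbinectedin. Of the same list, REST stood at 43.0 to 45.3 CPM in control and 34.5 to 36.4 with lurbinectedin. POU2F3 did not exceed 0.341 CPM in any library. COL1A1 and COL1A2 were present, but the fibroblast markers DCN and LUM were at or near 0, as were the endothelial and immune markers; the summed fibroblast list ran from 519 to 549 CPM in control and from 186 to 220.2 with lurbinectedin. The part of these markers in the members' changes was not tested.

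Levels are given as CPM, read counts divided by a library size that was scaled by the trimmed mean of M-values (TMM), and called changes are those with an adjusted p under 0.05 in edgeR's quasi-likelihood test, adjusted over all 16683 genes. In control, CPM divided by exonic length in kilobases ranked TOP2A first at 91.3 ± 2.71 (SD, n = 3). TOP2B followed at 51.8 ± 1.90, TOP1 at 32.9 ± 1.34 and PARP1 at 30.9 ± 0.828. XRCC1 stood at 15.97 ± 0.829, TDP2 at 12.9 ± 0.507 and TOP3A at 11.1 ± 0.292 per kilobase. The lowest were PARP2 at 7.32 ± 0.353, TDP1 at 6.48 ± 0.150 and LIG3 at 5.42 ± 0.212. No neighbours in this order overlapped between libraries. The order depends on the annotated lengths, which for PARP1 (18.4 kb) and LIG3 (12.9 kb) were the longest of the 10.

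With lurbinectedin alone, TDP1 and TOP2B were 3.12-fold and 2.85-fold lower than in control, TOP3A was 2.16-fold higher, and the other calls were of under 1.5-fold. In all, 8 of the 10 genes were called against control, 2 higher (TOP3A, TDP2) and 6 lower (TOP1, TOP2B, TDP1, PARP1, PARP2, XRCC1). Of all genes tested 71.6% were called in this comparison, 36.0% higher and 35.7% lower, so the number called is near the background. The groups did not overlap for 10 of 10 members, against 83.2% of all genes. The members' median log2 fold change was -0.33, against 0.05 over all genes. In these bulk libraries, fewer cells of a type and less RNA per cell cannot be told apart. With scaling by library size alone the median over all genes moved from 0.05 to -0.18, calls over all genes went from 50.2% to 39.2% higher, and the members' calls became 1 higher and 8 lower, where 66.0% of all genes were called.

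**Figure D1:**
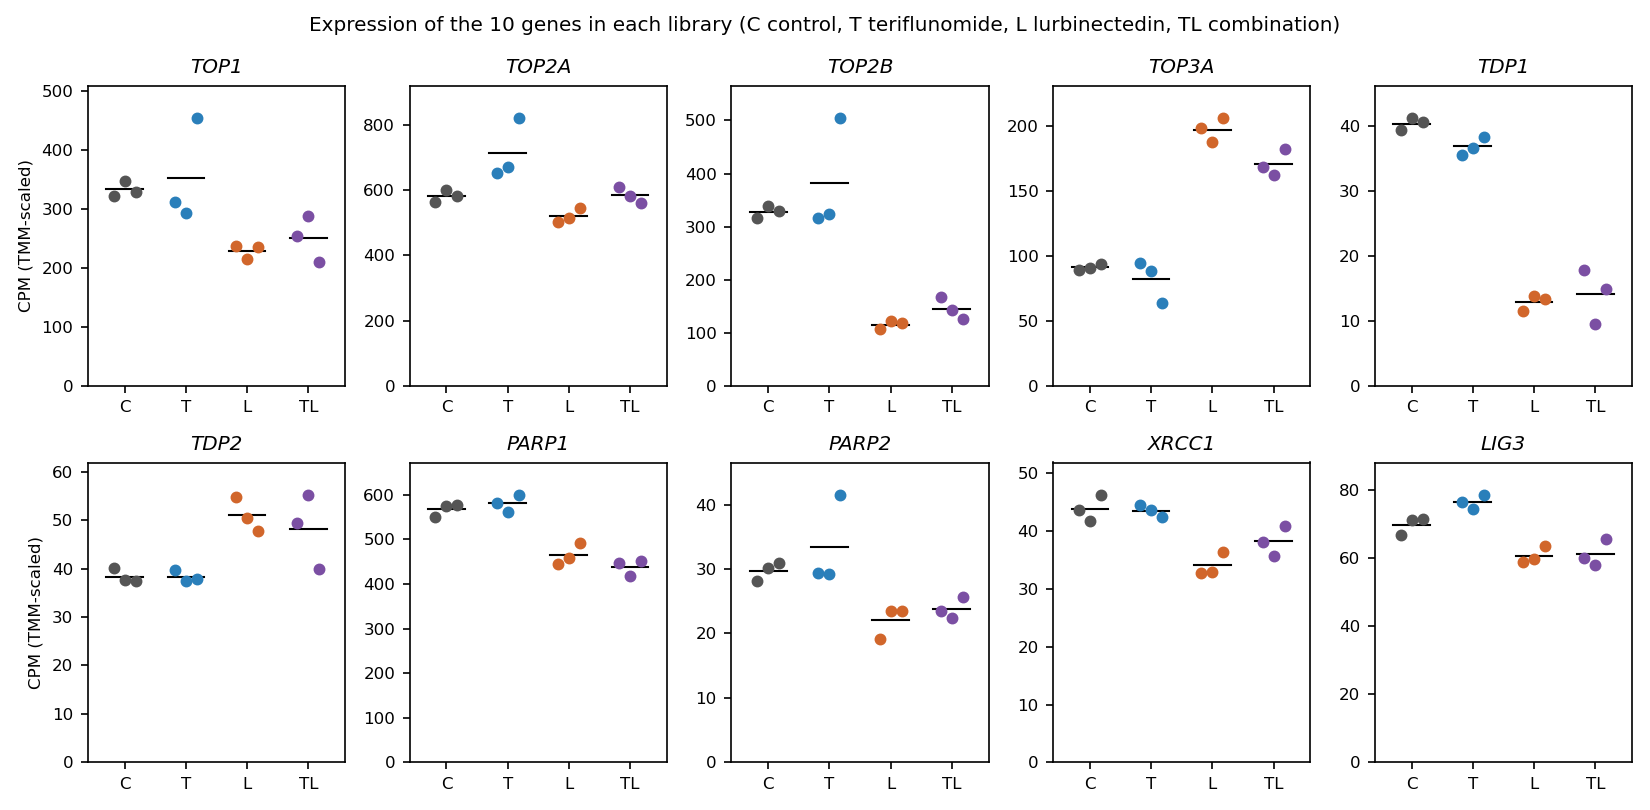
Points are the CPM (TMM-scaled, linear axis from 0) of each of the 12 libraries for the 10 genes, 3 libraries a group in the order of replicates 1 to 3, and the line is the group mean. TOP2B and TDP1 are low and TOP3A is high in all libraries with lurbinectedin (L and TL), and teriflunomide replicate 3 is the highest point for TOP1, TOP2A, TOP2B, PARP1, PARP2 and LIG3.

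TOP1 (ENSG00000198900.7, chr20:41028822-41124487 on hg38, plus strand), the main type I enzyme that relaxes supercoils ahead of polymerases, was read at 322, 348 and 329.5 CPM in control. It stood at 237, 215 and 235 CPM with lurbinectedin and at 254, 288 and 209.6 in the combination. All 6 libraries with lurbinectedin lay below the 3 controls. The log2 fold change with lurbinectedin was -0.54 (SE 0.153, adjusted p = 0.00588), from 333 ± 13.5 to 229 ± 12.2 CPM. With the combination it was -0.41 (SE 0.153, adjusted p = 0.0273), a call lost on leaving out control replicate 2 or 3 or combination replicate 1 or 3 (adjusted p 0.0523 to 0.115). The teriflunomide libraries read 312, 293 and 454 CPM, of which the third lay above all others.

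TOP2A (ENSG00000131747.15, chr17:40388525-40417896, minus strand), the type II enzyme of dividing cells that separates sister chromatids, was read at 565, 599 and 582 CPM in control. Its lurbinectedin libraries read 502, 515 and 545 CPM, all just under control, and the log2 difference of -0.16 (SE 0.0981, adjusted p = 0.154) was not called. The 95% interval of that difference was -0.37 to 0.05. It was called without teriflunomide replicate 3 (-0.18, adjusted p = 0.0224), with only the libraries of these 2 groups in the fit (-0.18, adjusted p = 0.00240) and with scaling by library size alone (-0.39, adjusted p = 0.00431). In the combination TOP2A read 609, 583 and 561 CPM and overlapped control, with a log2 difference of 0.01 (SE 0.0981, adjusted p = 0.965) whose 95% interval was -0.21 to 0.22; the sign of this difference turned with other scalings.

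TOP2B (ENSG00000077097.16, chr3:25597984-25664907, minus strand), the type II enzyme also found in cells that do not divide, where it acts at promoters, was read at 316, 339.8 and 329 CPM in control. With lurbinectedin its libraries read 106, 122 and 118 CPM, and in the combination 168, 144 and 125. The 6 libraries with lurbinectedin lay far below control, and those of the combination above those of lurbinectedin alone. TOP2B fell by 1.51 on the log2 scale with lurbinectedin (SE 0.164, adjusted p = 1.61e-06). In the combination it fell by 1.17 (SE 0.162, adjusted p = 2.04e-05). Both calls held in 21 of 21 alternative analyses.

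The count of TOP2A relative to TOP2B within a library, which no scaling between libraries can change, was 1.79, 1.76 and 1.77 in control. It was 4.72, 4.22 and 4.63 with lurbinectedin and 3.62, 4.05 and 4.48 in the combination, so that the 6 libraries with lurbinectedin stood apart from control. The ratio was 2.55-fold higher with lurbinectedin (log2 difference 1.35) and 2.28-fold higher in the combination (log2 difference 1.19). In both cases the exact two-sided permutation p was 0.1, the smallest that 3 against 3 libraries allow, and 0.2 after adjustment over the 20 tests of 4 ratios. Teriflunomide alone gave 2.05, 2.07 and 1.63, the last in replicate 3, and overlapped control. The ratio is of counts, not of levels per length.

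TOP3A (ENSG00000177302.15, chr17:18271428-18315007, minus strand), a type IA enzyme that works with the helicase BLM on joined DNA molecules and also acts on mitochondrial DNA, was the member that rose most. It was read at 89.5, 90.9 and 94.2 CPM in control, at 199, 188 and 206 with lurbinectedin and at 169, 162 and 182 in the combination. All libraries with lurbinectedin lay above all others. The rise was 2.16-fold with lurbinectedin (log2 1.11, SE 0.126, adjusted p = 2.56e-06) and 1.87-fold in the combination (log2 0.90, SE 0.126, adjusted p = 2.13e-05). Teriflunomide alone gave 94.6, 88.7 and 64.1 CPM, the lowest again in replicate 3.

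TDP1 (ENSG00000042088.14, chr14:89954939-90044764, plus strand), which hydrolyses the bond between TOP1 and a DNA 3′ end, had the largest fall of the 10 genes. Its control libraries read 39.3, 41.2 and 40.5 CPM. With lurbinectedin it read 11.5, 13.8 and 13.4 CPM, and in the combination 17.9, 9.57 and 14.9. The highest library with lurbinectedin, at 17.9 CPM, lay below the lowest without it, at 35.5. TDP1 fell by 1.64 on the log2 scale with lurbinectedin (SE 0.177, adjusted p = 1.44e-06). In the combination it fell by 1.51 (SE 0.175, adjusted p = 3.66e-06).

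TDP2 (ENSG00000111802.14, chr6:24649979-24666930, minus strand), its counterpart for TOP2 adducts at 5′ ends, went the other way. It was read at 40.1, 37.6 and 37.4 CPM in control, at 54.9, 50.4 and 47.7 with lurbinectedin and at 49.5, 55.3 and 39.9 in the combination. The lurbinectedin libraries lay above all controls, while combination replicate 3 fell within the control range. TDP2 rose by 0.41 on the log2 scale with lurbinectedin (SE 0.121, adjusted p = 0.00763), but the call was lost with scaling by library size alone (0.17, adjusted p = 0.245) and with no filter on low counts (0.34, adjusted p = 0.0639). With the combination the log2 change was 0.33 (SE 0.121, adjusted p = 0.0263). That call was lost without control replicate 2 or 3 or combination replicate 1 or 2 (adjusted p 0.0697 to 0.136) and also with scaling by library size (0.14, adjusted p = 0.340) or with no filter (0.27, adjusted p = 0.167).

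The TDP1 to TDP2 count ratio was 0.981, 1.10 and 1.08 in control, 0.209, 0.273 and 0.281 with lurbinectedin, and 0.361, 0.173 and 0.375 in the combination. The 2 transcripts were thus counted about equally in control and unequally in every library with lurbinectedin. The log2 ratio differed from control by -2.06 with lurbinectedin and by -1.88 in the combination (exact permutation p = 0.1 and adjusted p = 0.2 in each case, 3 against 3 libraries). Teriflunomide alone gave 0.894, 0.977 and 1.01, which overlapped control.

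**Figure D2:**
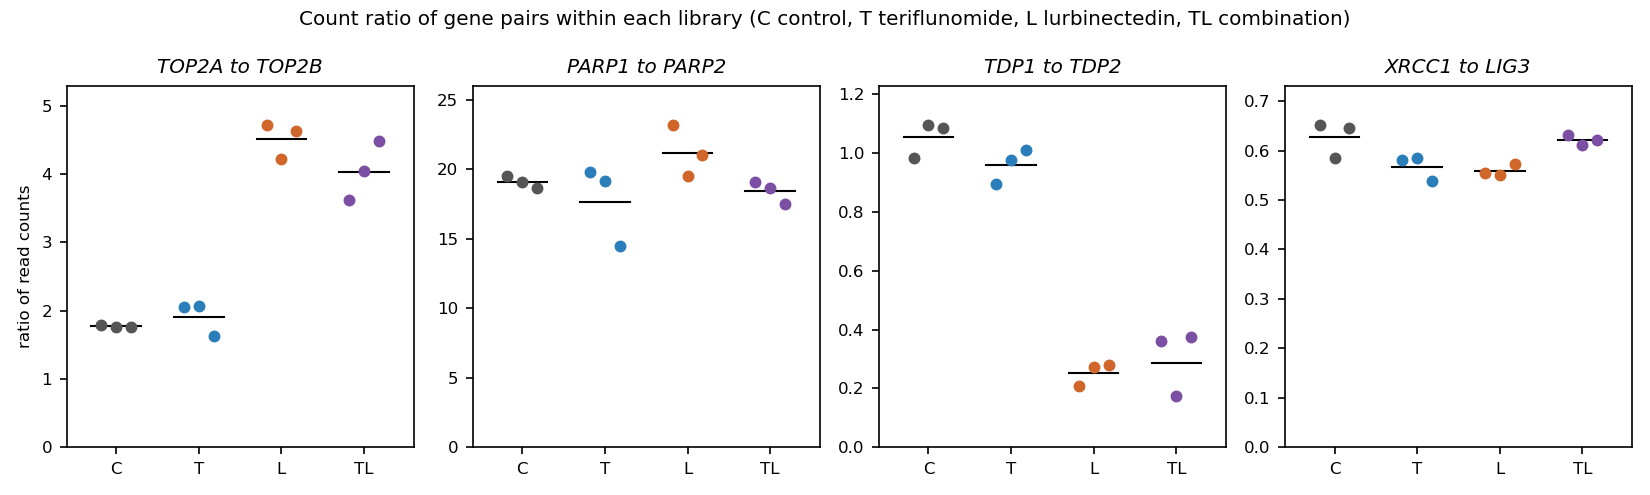
Points are the ratio of raw read counts of 2 genes within each of the 12 libraries (linear axes from 0), and lines are geometric means of the 3 libraries of a group. TOP2A to TOP2B rises from 1.77 to 4.52 and TDP1 to TDP2 falls from 1.05 to 0.252 with lurbinectedin, while PARP1 to PARP2 overlaps control in every treated group.

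PARP1 (ENSG00000143799.14, chr1:226360210-226408154, minus strand), the abundant sensor that makes most ADP-ribose chains at breaks, was read at 550.2, 575 and 578 CPM in control. It stood at 444, 459 and 493 CPM with lurbinectedin and 448, 418 and 450.4 in the combination, below control in all 6 libraries. PARP1 fell by 0.29 on the log2 scale with lurbinectedin (SE 0.0822, adjusted p = 0.00622). In the combination it fell by 0.37 (SE 0.0823, adjusted p = 0.00114). Both calls held in 21 of 21 alternative analyses, and with scaling by library size the change with lurbinectedin was -0.52.

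PARP2 (ENSG00000129484.14, chr14:20343615-20357904, plus strand), the smaller relative of PARP1, was read at 28.2, 30.2 and 30.9 CPM in control. With lurbinectedin it read 19.1, 23.5 and 23.4 CPM, and in the combination 23.5, 22.4 and 25.7. It fell by 0.43 on the log2 scale with lurbinectedin (SE 0.146, adjusted p = 0.0165), a call lost without control replicate 3 (adjusted p = 0.0508) or lurbinectedin replicate 1 (adjusted p = 0.0624). The combination was not called (log2 -0.32, SE 0.146, adjusted p = 0.0668), but 5 of 21 alternatives called it. These were leaving out teriflunomide replicate 3 (adjusted p = 0.00581), only the groups compared in the fit (0.0176), scaling by library size (log2 -0.48, 0.0201), DESeq2 (0.0449) and no filter (0.0480). With lurbinectedin, scaling by library size gave -0.66. PARP1 counts were 19.5, 19.1 and 18.7 times those of PARP2 in control and 23.2, 19.5 and 21.0 times with lurbinectedin, and the groups overlapped.

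XRCC1 (ENSG00000073050.12, chr19:43543311-43580473, minus strand), the scaffold of single-strand break repair, was read at 43.5, 41.7 and 46.2 CPM in control and at 32.7, 32.96 and 36.4 with lurbinectedin. It fell by 0.37 on the log2 scale (SE 0.101, adjusted p = 0.00504), or by 0.60 with scaling by library size. The combination libraries read 38.1, 35.6 and 40.8 CPM, also below all controls, and their log2 difference of -0.20 (SE 0.101, adjusted p = 0.0944) was not called. It was called in 2 of 21 alternatives, without teriflunomide replicate 3 (-0.21, adjusted p = 0.0339) and with DESeq2 (-0.21, adjusted p = 0.0373). XRCC1 shares 8.16% of its exon bases with another annotated gene on the same strand and 17.6% with another on the opposite strand. Reads there cannot be assigned with certainty.

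LIG3 (ENSG00000005156.12, chr17:34980512-35009743, plus strand), the ligase that XRCC1 carries and that also serves mitochondria, was read at 66.8, 71.4 and 71.6 CPM in control. It stood at 59.0, 59.9 and 63.6 CPM with lurbinectedin and 60.2, 58.2 and 65.8 in the combination, below control in all 6 libraries. Neither difference was called, at log2 -0.20 (SE 0.0919, adjusted p = 0.0638) and -0.19 (SE 0.0918, adjusted p = 0.0852). The lurbinectedin difference was called in 7 of 21 alternatives and that of the combination in 4 of 21. Both were called without teriflunomide replicate 3 (adjusted p = 0.0150 and 0.0259), with DESeq2 (0.0107 and 0.0250), without combination replicate 3 (0.0489 and 0.0420) and with scaling by library size (log2 -0.43 and -0.35, adjusted p = 0.0158 and 0.0468). With lurbinectedin it was also called with only the groups compared (0.00124), with DESeq2 size factors (0.0409) and without combination replicate 2 (0.0425). LIG3 shares 29.1% of its exon bases with RFFL on the opposite strand, and since the strand setting of the counting is not given in the sources used here, reads there cannot be assigned with certainty; RFFL held 2018 counts over all libraries against 23544 for LIG3. The XRCC1 to LIG3 count ratio was 0.585 to 0.652 in control and 0.550 to 0.573 with lurbinectedin (log2 difference -0.17, exact permutation p = 0.1, adjusted p = 0.2).

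**Figure D3:**
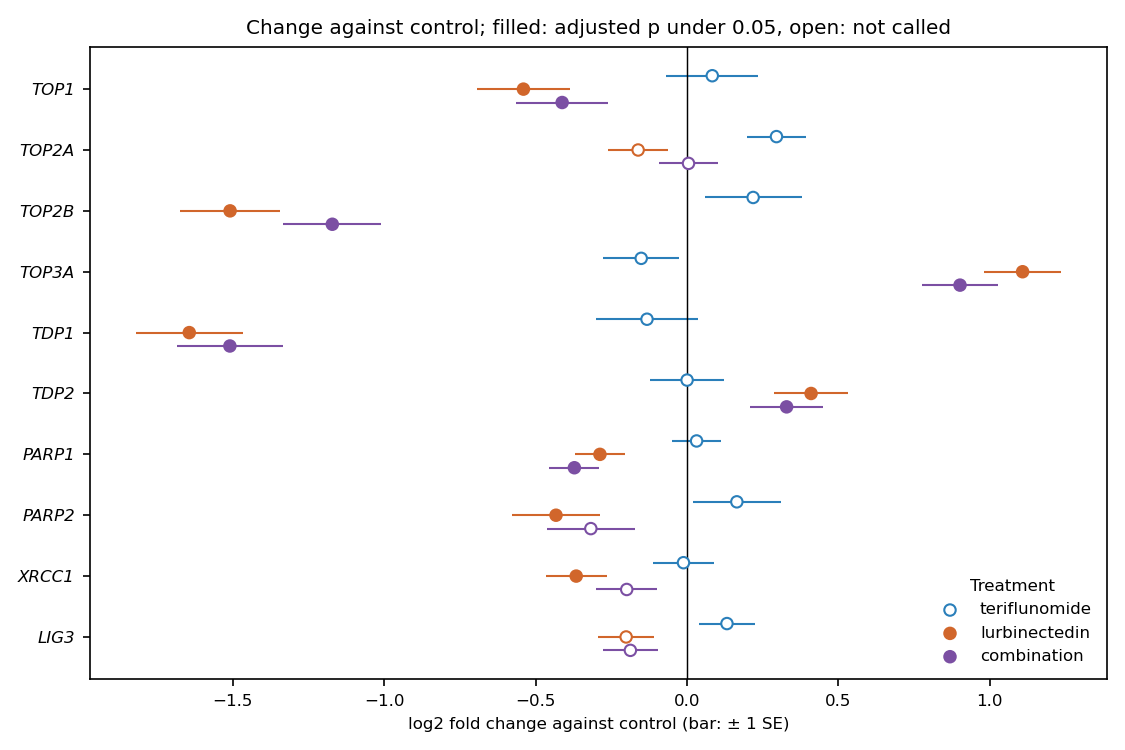
Points are the log2 fold change of each gene against control (linear axis in log2 units) for the 3 treatments, bars are 1 SE either side, and filled points have an adjusted p under 0.05. Lurbinectedin and the combination lie on the same side of 0 for 9 of the 10 genes, with TOP2A at -0.16 and 0.01, and no teriflunomide point is filled.

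In the combination, 6 of the 10 genes were called against control, 2 higher (TOP3A, TDP2) and 4 lower (TOP1, TOP2B, TDP1, PARP1), where 68.4% of all genes were called, 34.1% higher and 34.4% lower. The groups did not overlap for 8 of 10 members, against 77.2% of all genes. Without teriflunomide replicate 3 the test called 9 of 10 members in the combination, against 74.9% of all genes, and 10 of 10 with lurbinectedin, against 77.2%. Both comparisons use the same 3 control libraries, so their likeness is not independent. Without combination replicate 2, whose mitochondrial share was 24.9%, 1 member was called higher and 4 lower in the combination, where 63.1% of all genes were called. The part of the mitochondrial share in these differences was not tested.

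Teriflunomide alone gave no call among the 10 genes, where 6.01% of all genes were called, 3.88% higher and 2.13% lower. DESeq2 called 1 member, TOP2A, and 12.3% of the genes it gave an adjusted p, and 1 member had an unadjusted p under 0.05. That gene, TOP2A, read 651, 671 and 821 CPM, above the 565 to 599 of control in each library, and its log2 difference of 0.30 (SE 0.0981) had an adjusted p of 0.0878 in edgeR and 0.0411 in DESeq2. Without replicate 3 it was 0.18 (adjusted p = 0.139). TDP1 at 35.5, 36.6 and 38.3 CPM and LIG3 at 76.7, 74.4 and 78.8 CPM also did not overlap control, with log2 differences of -0.13 (adjusted p = 0.656) and 0.13 (adjusted p = 0.384). Thus 3 of 10 members did not overlap control, against 36.8% of all genes. PARP1 at 581, 560.4 and 600.1 CPM and XRCC1 at 44.5, 43.6 and 42.4 CPM overlapped control, as did TDP2 at 39.7, 37.4 and 37.9. PARP2 read 29.4, 29.2 and 41.5 CPM, with only replicate 3 outside the control range on the high side.

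The combination was then compared with lurbinectedin alone, which asks what teriflunomide changed in its presence. No member was called, and 0.00% of all 16683 genes were. At an unadjusted p under 0.05 there were 0 members and 2599 genes, and DESeq2 called 0 members and 584 genes. The members' log2 differences ran from -0.21 (TOP3A) to 0.34 (TOP2B), with a median of 0.12 against 0.03 over all genes. TOP2B had the smallest adjusted p, 0.330, with a 95% interval of -0.01 to 0.68, and was called without teriflunomide replicate 3 (log2 0.34, adjusted p = 0.0244), where 12.1% of all genes were called. The groups did not overlap for 3 of 10 members, TOP2A, TOP2B and TOP3A, against 23.7% of all genes.

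The difference of differences, which asks whether the effects of the 2 drugs add on the log2 scale, was not called for any member. In this test 0.258% of all genes were called, 0.036% higher and 0.222% lower. Of these calls 14.0% were higher, or 33.3% with scaling by library size. The members' values ran from -0.13 (TOP2A) to 0.27 (TDP1), with adjusted p from 0.738 to 0.971 and no member at an unadjusted p under 0.05. For TDP1 the 95% interval was -0.26 to 0.79 and for PARP1 -0.37 to 0.13. DESeq2 also called 0 members.

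Against teriflunomide alone, the combination gave 9 of 10 calls, 2 higher (TOP3A, TDP2) and 7 lower, where 70.9% of all genes were called, 35.2% higher and 35.8% lower. The groups did not overlap for 10 of 10 members, against 70.7% of all genes. TOP3A was 2.07-fold higher (log2 1.05, SE 0.126, adjusted p = 4.65e-06). TOP2B fell by 1.39 on the log2 scale (SE 0.163, adjusted p = 3.86e-06) and TDP1 by 1.38 (SE 0.175, adjusted p = 8.09e-06). TOP2A, not called against control, fell by 0.29 here (SE 0.0981, adjusted p = 0.0164), and LIG3 by 0.32 (SE 0.0918, adjusted p = 0.00655). The other falls called were TOP1 at -0.50, PARP1 at -0.40 and PARP2 at -0.48, and TDP2 rose by 0.33 (adjusted p = 0.0254). Without teriflunomide replicate 3 the falls were smaller for TOP1 (-0.28), PARP2 (-0.30) and TOP2A (-0.19), each still called. The TDP2 call was lost without teriflunomide replicate 2 or combination replicate 1 or 2 (adjusted p 0.0593 to 0.115), with scaling by library size (0.22, adjusted p = 0.138) and with no filter (0.29, adjusted p = 0.119). XRCC1 was not called (log2 -0.19, adjusted p = 0.110), except without teriflunomide replicate 3 (adjusted p = 0.0496). With only the 6 libraries of these groups in the fit, 4 members and 62.7% of all genes were called, and the calls of TOP1, TOP2A, TDP2, PARP2 and LIG3 were lost (adjusted p 0.0502 to 0.111).

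The members differ in the length of genome they span, from 14.3 kb for PARP2 to 95.7 kb for TOP1, and over 16651 nuclear genes the change with lurbinectedin differed by span. In 5 bins of equal gene number, from short to long, the median log2 fold change was 0.69, 0.62, 0.28, -0.36 and -1.86. TDP1 (89.8 kb) at -1.64 was inside the quartiles of the longest bin. TOP1, in the same bin, was at -0.54, above its upper quartile of -0.91. TOP2B (66.9 kb) at -1.51 was under the lower quartile of the fourth bin, -0.99, and TOP3A (43.6 kb) at 1.11 was above its upper quartile, 0.26. PARP2 at -0.43 was below the lower quartile of the second bin, 0.0032. The other members, TOP2A, TDP2, PARP1, XRCC1 and LIG3, were inside the quartiles of their bins, and all 10 held the same position in the combination. These positions are descriptions across genes, which are not replicates.

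**Figure D4:**
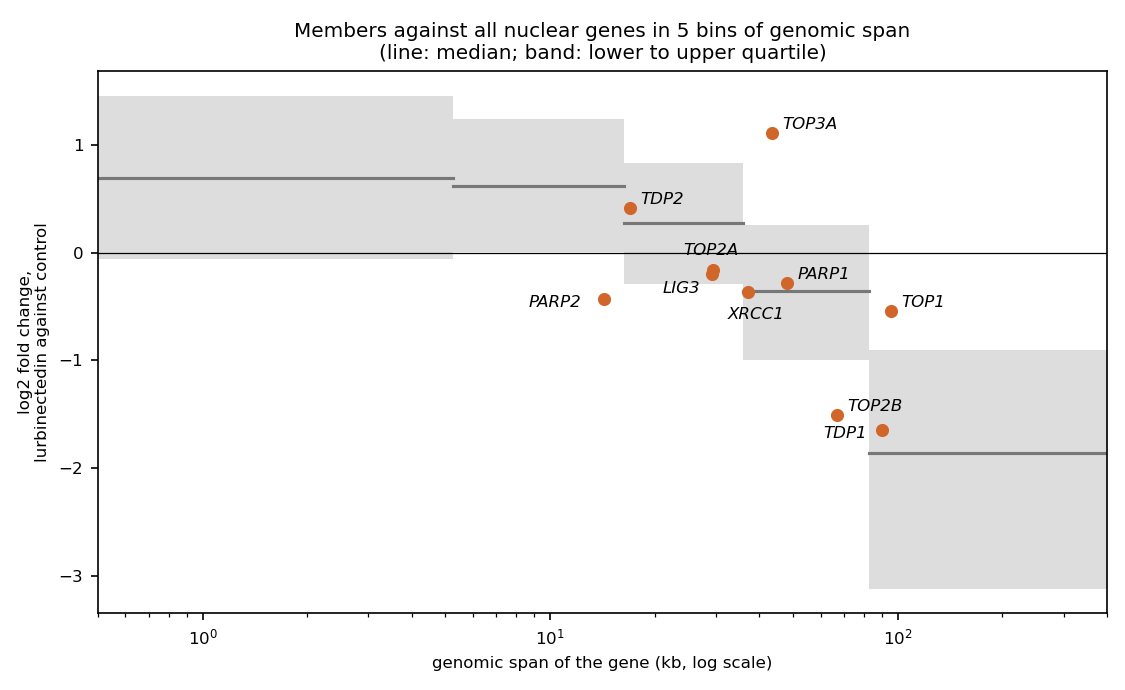
Points are the log2 fold change with lurbinectedin of the 10 genes against the genomic span of each (log axis, drawn from 0.5 to 400 kb, so the shortest and longest bins run past it). Grey lines and bands are the median and quartiles of all nuclear genes in the 5 bins of span, and TOP1 and TOP3A lie above, TOP2B and PARP2 below their band.

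The 66 other genes of related pathways were listed by function, and all of them were tested. With lurbinectedin 23 were called higher and 22 lower, near the 36.0% and 35.7% of all genes. In the combination 17 were called higher and 26 lower, where all genes gave 34.1% and 34.4%, and with teriflunomide 1 and 2, where all genes gave 3.88% and 2.13%. The same shares are the background of each list that follows. Base excision and single-strand break repair, the pathway in which XRCC1 and LIG3 act last, had 11 of 15 genes called higher and 0 lower with lurbinectedin, and a median log2 fold change of 0.47 against 0.05 over all genes. Without teriflunomide replicate 3 it was 11 higher and 1 lower. MUTYH, the glycosylase that removes adenine opposite oxidised guanine, rose most, from 2.90 ± 0.118 to 10.98 ± 0.482 CPM (log2 1.92, SE 0.173, adjusted p = 2.49e-07). MUTYH shares 31.6% of its exon bases with another annotated gene on the same strand, so its count is uncertain. It also shares 8.45% of its exon bases with TOE1 on the opposite strand, which had 15845 counts against its 2167. In the combination 8 genes of this list were called higher and 1 lower, or 10 and 1 without teriflunomide replicate 3.

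Among topoisomerase partners, 2 of 7 were called higher and 4 lower with lurbinectedin. BLM, the helicase partner of TOP3A, fell from 72.9 ± 0.983 to 36.9 ± 4.30 CPM (log2 -0.98, SE 0.136, adjusted p = 1.79e-05) where TOP3A rose. TOPORS, a ligase for ubiquitin and SUMO named for its binding to TOP1, rose from 44.2 ± 2.23 to 102 ± 4.49 CPM (log2 1.21, SE 0.198, adjusted p = 8.31e-05). In the combination 1 was called higher and 4 lower, with BLM at -0.71 and TOPORS at 1.33. Without teriflunomide replicate 3 the combination count was 2 higher and 4 lower.

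Of the ADP-ribose metabolism genes, 1 of 10 was called higher and 5 lower with lurbinectedin, 8 lower without teriflunomide replicate 3. TNKS, a tankyrase, fell from 170 ± 5.01 to 13.4 ± 1.42 CPM (log2 -3.66, SE 0.181, adjusted p = 7.65e-10). ADPRS, the hydrolase that removes ADP-ribose from serine, rose from 25.3 ± 0.769 to 68.5 ± 4.38 CPM (log2 1.44, SE 0.209, adjusted p = 2.81e-05). The list's median was -0.76, and in the combination 1 was called higher and 6 lower.

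End joining had 2 of 12 genes called higher and 6 lower with lurbinectedin, a median of -0.48, and 1 and 7 in the combination. Without teriflunomide replicate 3 the lurbinectedin count was 4 higher and 6 lower, and the combination count was 3 higher and 7 lower. XRCC4, the partner of ligase IV, fell from 13.4 ± 0.632 to 0.336 ± 0.0507 CPM (log2 -5.29, SE 0.267, adjusted p = 8.85e-10), with as few as 6 reads in a library. PAXX, an end joining accessory factor, changed by 0.83 (SE 0.302, adjusted p = 0.0241), a call lost without any 1 of the 3 controls or lurbinectedin replicate 3 (adjusted p 0.0505 to 0.0816) and with scaling by library size (0.60, adjusted p = 0.186).

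The list for removal of proteins linked to DNA had 4 of 10 called higher and 3 lower with lurbinectedin and the same numbers in the combination. With lurbinectedin the count was 5 higher and 4 lower without teriflunomide replicate 3. RAD50, a subunit of the MRE11 complex, fell by 1.68 on the log2 scale (SE 0.203, adjusted p = 4.77e-06), from 6.18 ± 0.549 CPM. RAD50 shares 76.9% of its exon bases with another annotated gene on the same strand, so its count is uncertain. GCNA, a protease-like protein of germ cells, rose from 0.627 ± 0.154 to 2.01 ± 0.186 CPM (log2 1.67, SE 0.260, adjusted p = 5.46e-05). Proliferation genes, with which TOP2A is known to be expressed, had 3 of 12 called higher and 4 lower and a median of -0.06. Their count was 3 higher and 5 lower without teriflunomide replicate 3. PCNA, the replication clamp, rose by 1.38 (SE 0.0829, adjusted p = 3.82e-09) and BUB1, a mitotic checkpoint kinase, fell by 1.06 (SE 0.104, adjusted p = 5.80e-07).

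**Figure D5:**
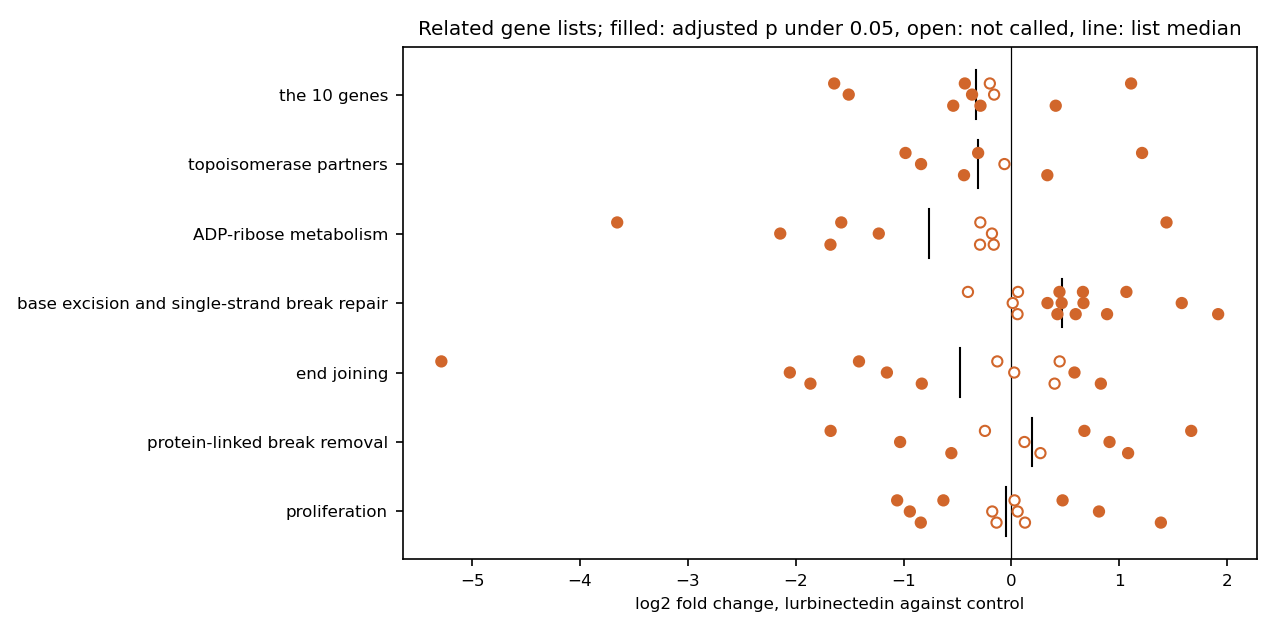
Points are the log2 fold change with lurbinectedin against control (linear axis in log2 units) of the 10 genes and of the 6 lists, filled where the adjusted p was under 0.05; the line is the median of the list and vertical spread within a row only separates points. The base excision row holds 11 filled points above 0 and none below, and the other rows hold filled points on both sides.

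By Euclidean distance between log2 profiles relative to control over the 12 libraries, the genes most like each of 3 members were sought among 10311 genes of at least 5 CPM on average. TOP1 was nearest to CHRAC1 (distance 0.188) and TANK (0.244), where the median distance over all genes was 2.39. TOP2A was nearest to TMEM237 (0.145) and RALGAPB (0.216), with a median of 2.14. PARP1 was nearest to PITPNA (0.192) and RMI2 (0.218), with a median of 2.15. The nearest 2 of 10311 genes lie below the median by selection, so these distances only describe the profiles. RMI2 is itself among the topoisomerase partners and fell by 0.31 with lurbinectedin.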

How the data were processed

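The deposited files hold raw read counts per gene for 12 libraries, 3 in each of 4 treatment groups. Per the submitters' processing notes, the tools used included fastp 0.23.2, STAR 2.7.9 and Subread featureCounts, with hg38; the annotation release and the settings for strand and shared reads are not given in the sources used here. Symbols were matched for 60463 of 60649 gene IDs. Per the labels' protocols, libraries were made with a kit that selects mRNA.

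From these counts edgeR 4.0.16 (R 4.3.3) fitted 1 mean per group over all 12 libraries, after filterByExpr and TMM scaling, with robust dispersion (biological coefficient of variation 14.5%). The quasi-likelihood test gave 6 contrasts, adjusted by Benjamini and Hochberg over 16683 genes. SE is the log2 fold change divided by the root of F, and 95% intervals use the t distribution with the degrees of freedom of the fit. Ratios of 2 counts were compared by exact permutation (scipy 1.17.1). The script was tested on simulated data. Alternatives included DESeq2 1.42.0, other scalings and filters, and leaving out each library.

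The members and lists were chosen with earlier results of these data known. Named genes are all 10 members, the called gene with the largest rise and fall with lurbinectedin in each of 6 lists, and for TOP1, TOP2A and PARP1 the 2 nearest genes. Libraries of a group differed by more than sampling noise (chi-square per degree of freedom at least 3.26). Between control libraries this value was 3.31 to 3.77. It reached 244 in pairs with teriflunomide replicate 3 and 113 in pairs with combination replicate 2. A marker of the neuroendocrine list is not reported here.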

Additional observations from a re-analysis of the deposited data

How the results depend on the processing

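Each contrast was refitted under the alternatives named here. The number of members called moved by over 1.5 times in 3 cases: to 1 for teriflunomide with DESeq2, to 4 for the combination against teriflunomide with only the groups compared in the fit, and between 0 and 1 for the combination against lurbinectedin on leaving out a library. Over all genes, teriflunomide against control gave 1002 calls, and 230 with the adjusted p under 0.01, 265 with library size only, 1800 with no filter, 283 with only the groups compared, 1890 with DESeq2 and 216 to 1555 on leaving out a library. The combination against lurbinectedin gave 0 calls, and 612 with no filter, 94 with only the groups compared, 584 with DESeq2 and 0 to 2067 on leaving out a library. The difference of differences gave 43 calls, and 5 at 0.01, 6 with library size only, 195 with no filter, 256 with DESeq2 and 2 to 616 on leaving out a library. The causes were not tested.

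Signs turned only for differences that were not called. With library size only these were -0.025 for TOP1, -0.079 for TDP2 and -0.051 for PARP1 with teriflunomide, -0.16 for TOP2A in the combination, and in the difference of differences 0.030 for TOP2A, 0.075 for TOP3A, 0.049 for TDP2, 0.037 for PARP1, 0.12 for PARP2 and 0.037 for LIG3. TOP2A in the combination was -0.0084 with DESeq2 size factors and with DESeq2, and -0.054 with no filter. TDP2 with teriflunomide was -0.010 with DESeq2 size factors and with DESeq2, -0.024 with no filter, -0.00095 with a filter at 1 CPM and -0.026 with only the groups compared. On leaving out a library, the log2 differences that turned ran as follows. With teriflunomide, TOP1 was -0.14 to 0.20, TOP2B -0.035 to 0.34, TDP2 -0.024 to 0.033, PARP2 -0.024 to 0.25 and XRCC1 -0.044 to 0.030. TOP2A in the combination was -0.029 to 0.033. Against lurbinectedin, TDP1 was -0.063 to 0.35, TDP2 -0.19 to 0.039 and LIG3 -0.039 to 0.054. In the difference of differences, TOP1 was -0.077 to 0.28, TOP2B -0.00069 to 0.38, TOP3A -0.20 to 0.052, TDP2 -0.18 to 0.038 and PARP2 -0.14 to 0.15. Among ratios, PARP1 to PARP2 was -0.20 to 0.029 with teriflunomide and -0.082 to 0.14 for the combination against teriflunomide, TDP1 to TDP2 was -0.013 to 0.54 for the combination against lurbinectedin, and XRCC1 to LIG3 was -0.062 to 0.017 in the combination.

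With the replicate number as a block, the members called stayed at 0, 8, 6, 0, 9 and 0 in the 6 contrasts, and calls over all genes moved to 415 for teriflunomide and 8 for the difference of differences. The 18 correlations of same-numbered libraries ran from -0.40 to 0.14, with 1 over 0.1, so the numbers were not taken as pairs. Leaving mitochondrial genes out of the library sizes, an alternative chosen after seeing the data, gave the same numbers of members called in all 6 contrasts.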
